A study of Mus musculus with 44 samples.

Results

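The choice of reference in an assay of RNA methylation was examined in mouse liver, by setting peaks called against a control IgG precipitate beside peaks called against input RNA. N6-methyladenosine (m6A) is the commonest internal modification of messenger RNA. It is written mainly by a METTL3 and METTL14 complex, is found most often near stop codons, and is read by YTH-domain proteins that affect decay and translation. In MeRIP, fragmented RNA is precipitated with an antibody against m6A, and a peak is a stretch of a transcript where the precipitate exceeds a reference. An IgG precipitate as reference accounts for RNA that sticks to an antibody or beads without m6A. Input RNA as reference accounts for how abundant a transcript is.

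The livers came from male C57Bl/6J mice on a high-fat diet, with 42% of energy from fat in all groups. The groups were Aroclor1260, PCB126, Aroclor1260 + PCB126 (the combination below) and a vehicle control. Exposure was a single oral dose at week 2 of a 12-week study, and neither the doses nor the age of the animals is given in the sources used here. Aroclor1260 was sold as a blend of heavily chlorinated biphenyls. PCB126 is 1 biphenyl of dioxin-like shape, and the aryl hydrocarbon receptor is its main target. Each of the 4 treatments had 5 m6A libraries, 1 pooled IgG library and 5 input libraries, and the 24 IgG and input libraries of the 44 in all served as reference. Each treatment had 1 list called against IgG and 1 called against input, both from the same m6A libraries, so the lists of a treatment are not independent.

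All 17573 peaks of the 8 lists and all 1512 gene identifiers were used. A peak was found with both references if its span and that of a peak in the other list of its treatment shared 1 bp or more of a chromosome and strand, and otherwise with IgG only or with input only. Genes were classed in the same way by whether each list held a peak under their identifier. Symbols were assigned by position on GRCm38.p6 to 1353 identifiers, and 159 stayed unnamed. The lists held 1 value per treatment and none per animal, so no test across animals could be made. Intervals below are 95% Wilson intervals and cover counting error only. The read depth behind each list is unknown.

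The liver label was set against markers by peaks, since no expression values were used. Of 10 hepatocyte markers, 4 to 6 carried a peak in an IgG-referenced list and 1 to 6 in an input-referenced list, with Apoa1 in all 8 lists. Of 8 endothelial markers, 2 to 3 did so with IgG and 2 with input. Of the other types, Cd5l (macrophages) and Spp1 (cholangiocytes) were the markers with a peak, and stellate cell and lymphocyte markers carried none. The plus strand held 95.2% of all peaks, and 56 of 163 minus-strand identifiers received a symbol. Genes of the minus strand could therefore be missed, here and in the gene lists below. The RNA was from whole liver, so fewer cells of a type and less RNA per cell cannot be told apart for any gene named below.

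At single stretches of sequence the lists could differ or match, and 3 transcription starts are shown as examples. Each window runs 30 bases before to 30 bases from the annotated start on the plus strand, is taken from RefSeq (GRCm38.p6), and has in capitals the bases that lay inside a peak of any list. They were chosen to show a start found mostly with IgG only, a start found with input only in some treatments and a start found with both throughout. Sord encodes sorbitol dehydrogenase, Hexim1 an inhibitor of the elongation factor P-TEFb, and Amotl2 a junction-associated angiomotin.
Sord, chr2:122234809-122234868: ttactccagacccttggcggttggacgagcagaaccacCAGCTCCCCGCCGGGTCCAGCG
Hexim1, chr11:103116295-103116354: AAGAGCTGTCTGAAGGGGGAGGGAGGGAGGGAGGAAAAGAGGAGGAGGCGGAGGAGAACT
Amotl2, chr9:102717774-102717833: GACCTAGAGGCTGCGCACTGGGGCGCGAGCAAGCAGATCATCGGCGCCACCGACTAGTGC

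At Sord the peak began at position 122234847 in each list that held it. With IgG its fold enrichment (m6A precipitate over the reference, the authors' ratio for that peak) was 1.88 in Aroclor1260, 2.42 in PCB126, 2.32 in the combination and 2.10 in vehicle control. With input it was called in the combination alone, at 1.83. The Hexim1 start was found with input only in Aroclor1260, at 1.30, and in the combination, at 2.80. As a gene, Hexim1 was found with both references in all 4 treatments. In PCB126 the Hexim1 start lay in a longer peak found with both references, at 54.2 with IgG and 17.1 with input. The Amotl2 start was found with both references in all 4 treatments. Such peaks were few: 34 genes had a peak over at least 10 of the first 30 transcribed bases in any list. The letters GGAC, the core of the common m6A motif, were searched on the transcribed strand of the first 50 transcribed bases at each start, a stretch that reaches past the windows printed here. They stood in 9 of those 34 starts (26.5%) and in 18.9% of all 32851 starts.

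The IgG-referenced lists were longer in every treatment. Aroclor1260 had 2082 peaks with IgG and 506 with input, PCB126 had 4129 and 2178, the combination had 3683 and 2284, and vehicle control had 2091 and 620. The IgG-over-input ratio of peak numbers was therefore 4.11 in Aroclor1260, 1.90 in PCB126, 1.61 in the combination and 3.37 in vehicle control. The ratio for gene identifiers was smaller, at 2.63, 1.60, 1.39 and 2.35 in the same order. Aroclor1260 and vehicle control were alike in having a short input-referenced list, and PCB126 and the combination had longer ones.

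**Figure D1:**
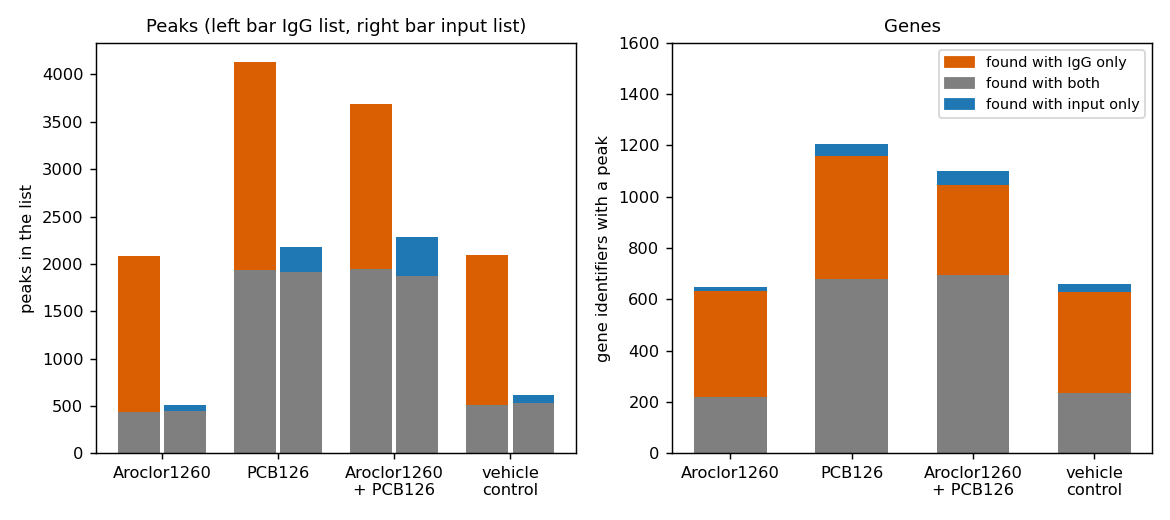
Number of peaks in each list (left panel, with the IgG list as the left bar of each pair and the input list as the right) and number of gene identifiers with a peak (right panel) in the 4 treatments, coloured by whether they were found with IgG only, both references or input only. Peaks found with IgG only are the larger part of the IgG lists of Aroclor1260 (79.0%) and vehicle control (75.6%) and about equal to shared peaks in PCB126 and the combination.

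Most IgG-referenced peaks were absent from the input-referenced list in Aroclor1260 and vehicle control. Found with IgG only were 1645 peaks in Aroclor1260 (79.0%, interval 77.2 to 80.7), 2189 in PCB126 (53.0%, 51.5 to 54.5), 1735 in the combination (47.1%, 45.5 to 48.7) and 1581 in vehicle control (75.6%, 73.7 to 77.4). Of the input-referenced peaks, found with input only were 59 in Aroclor1260 (11.7%, 9.15 to 14.7), 264 in PCB126 (12.1%, 10.8 to 13.6), 414 in the combination (18.1%, 16.6 to 19.8) and 93 in vehicle control (15.0%, 12.4 to 18). These shares depend on list length. When the longer list of each treatment was cut to the length of the shorter, best false discovery rate first, 78.7% of the Aroclor1260 IgG peaks and 76.9% of the input peaks were unshared. The same cut left unshared 46.3% of IgG peaks and 44.7% of input peaks in PCB126, 41.7% and 42.4% in the combination, and 74.5% and 71.6% in vehicle control. Ranked by false discovery rate, the top IgG peaks of Aroclor1260 and vehicle control were thus mostly not input peaks. A threshold of 10-fold or more kept fewer IgG peaks, 75 in Aroclor1260 and 83 in vehicle control. Of these, 25.3% and 20.5% were found with IgG only. Of the 230 and 307 IgG peaks at 5- to 10-fold, 59.6% and 56.0% were found with IgG only. At 2- to 5-fold the shares were 80.6% and 77.4%. A ranking by fold at equal list length was not made.

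The fold enrichment of a peak went with whether the other reference also found it. The median fold of IgG-only peaks was 2.45 in Aroclor1260, 2.70 in PCB126, 2.60 in the combination and 2.40 in vehicle control, and that of shared peaks in the IgG lists 3.62, 4.33, 3.8 and 4.20. Input-only peaks had medians of 1.61, 1.81, 1.69 and 1.67, and shared peaks in the input lists 2.23, 2.62, 2.62 and 2.55. Of IgG peaks under 2-fold, 90.7% were found with IgG only in Aroclor1260, 77.9% in PCB126, 65.1% in the combination and 90.5% in vehicle control. Of IgG peaks at 10-fold or more, these shares were 25.3%, 13.8%, 11.7% and 20.5% in the same order. Input peaks under 2-fold were found with input only in 18.5%, 24.2%, 34.6% and 26.3% of cases. At 10-fold or more this held for 4 of 21 input peaks in Aroclor1260, 4 of 119 in PCB126, 3 of 85 in the combination and 1 of 25 in vehicle control.

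**Figure D2:**
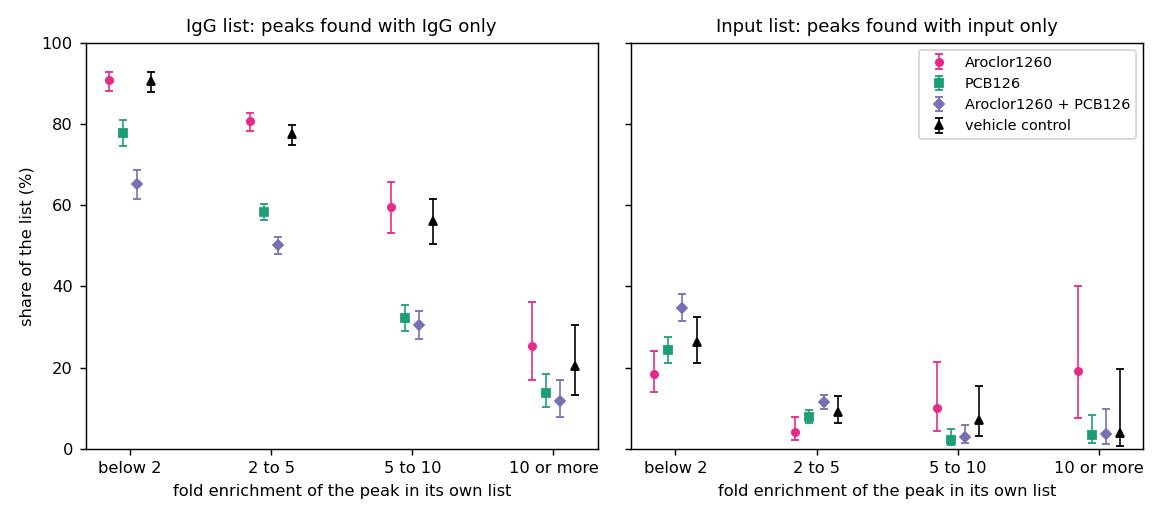
Share of each list found with its own reference alone (vertical axis, percent), by the fold enrichment of the peak (horizontal axis), for IgG lists (left) and input lists (right). Points are the 4 treatments and bars are 95% Wilson intervals of the counts. In the IgG lists the share is lower at each higher class of fold in every treatment, and at 10-fold or more it lies between 11.7% and 25.3%.

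Where a pair of peaks matched one to one, the IgG list usually gave the higher enrichment. There were 315 such pairs in Aroclor1260, 1249 in PCB126, 1320 in the combination and 348 in vehicle control. The fold was higher with IgG in 90.8%, 87.0%, 77.3% and 86.2% of them, and the median log2 IgG-over-input ratio was 0.61, 0.58, 0.42 and 0.56. The span was identical in 25.1%, 37.4%, 35.0% and 27.6%. Among pairs of unequal exonic width, the IgG peak was wider in 160 and the input peak in 68 in Aroclor1260. The corresponding numbers were 451 and 300 in PCB126, 449 and 358 in the combination, and 177 and 60 in vehicle control. The IgG folds rest on 1 pooled library per treatment and the input folds on 5 libraries. The part of this in the higher IgG folds was not tested.

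Peaks found with 1 reference were narrower than shared peaks, measured as exonic width, the summed length of a peak's blocks. With IgG only the median width was 151 bp in Aroclor1260, 150 bp in PCB126, 150 bp in the combination and 151 bp in vehicle control. Shared peaks in the same lists had medians of 300, 251, 250 and 301 bp. With input only the median was 149, 101, 101 and 147 bp, against 201, 249, 249 and 250 bp for shared peaks of the input lists. A width of 101 bp or less held for 33.7%, 39.8%, 43.4% and 35.7% of IgG-only peaks and for 13.5%, 17.0%, 19.4% and 14.1% of shared peaks in the IgG lists. It held for 42.4%, 65.9%, 57.5% and 49.5% of input-only peaks. With lists of equal length, the median width in Aroclor1260 was 200 bp for input-only peaks and 200 bp for shared input peaks, so the difference was not seen there.

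Block structure differed by reference. A peak with more than 1 block joins stretches on either side of an intron. Such peaks were 33.4% of IgG-only peaks in Aroclor1260, 38.3% in PCB126, 33.0% in the combination and 33.8% in vehicle control, and 25.6%, 28.5%, 28.0% and 25.1% of shared peaks in the IgG lists. Within width classes, IgG-only peaks had the higher share in 16 of 16 combinations of treatment and class. Input-only peaks showed no such excess: 13.6%, 23.1%, 25.8% and 12.9% had more than 1 block, against 20.1%, 26.9%, 27.9% and 18.8% of shared peaks in the input lists. Within width classes the input-only share was higher in 6 and lower in 10 of 16. In the IgG lists, the last 20% of the gene span held 44.1%, 48.4%, 50.1% and 46.7% of IgG-only peaks and 44.4%, 45.7%, 48.9% and 45.4% of shared peaks. In the input lists it held 42.6%, 47.8%, 51.2% and 57.9% of input-only peaks and 45.9%, 46.5%, 49.1% and 44.2% of shared peaks. The widest gap was that of vehicle control, where the intervals overlapped, at 46.7% to 68.4% for 76 input-only peaks and 39.8% to 48.7% for 482 shared peaks. The first 20% of the span held 15.4% (11.4% to 20.4%) of PCB126 input-only peaks and 9.54% (8.27% to 11%) of shared peaks, so that these intervals did not overlap. In Aroclor1260 it held 22.2% (13.2% to 34.9%) of 54 input-only peaks and 12.7% (9.81% to 16.3%) of shared peaks. In the combination it held 11.5% (8.67% to 15.1%) of input-only peaks and 10.7% (9.35% to 12.3%) of shared peaks. The order was reversed in vehicle control, at 7.89% (3.67% to 16.2%) of input-only peaks and 13.9% (11.1% to 17.3%) of shared peaks. The plus strand held 95.2% of all peaks, and minus-strand peaks were 3.59%, 3.65%, 3% and 2.59% of IgG-only peaks and 9.61%, 5.36%, 4.93% and 7.25% of shared peaks in the IgG lists.

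**Figure D3:**
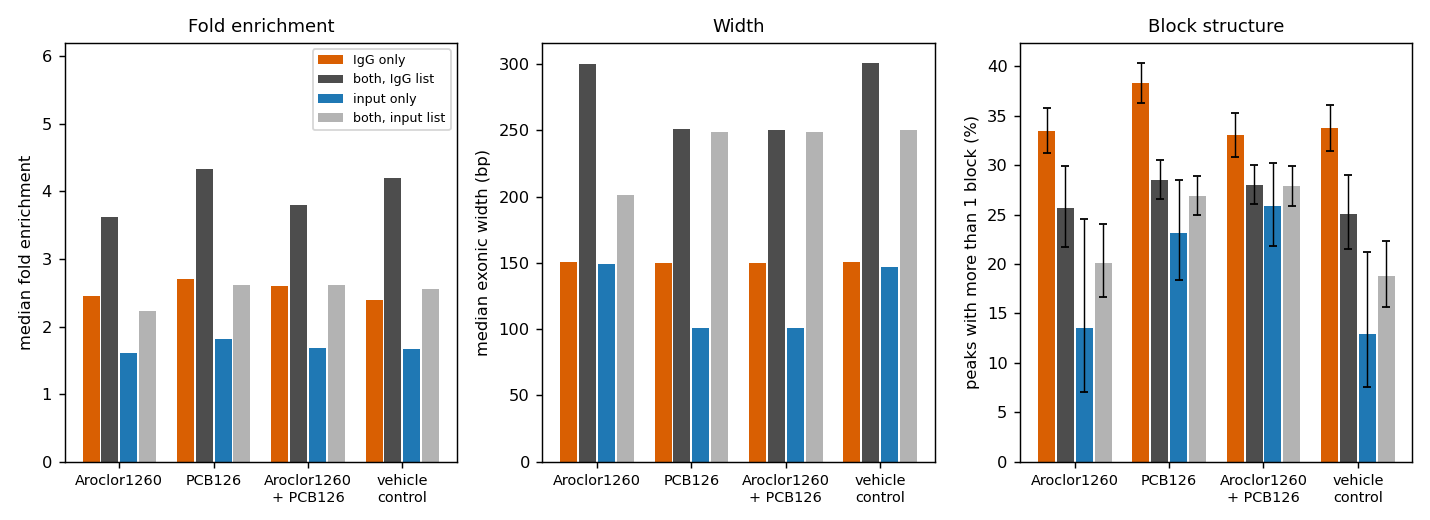
Median fold enrichment, median exonic width in base pairs, and share of peaks with more than 1 block in percent, for peaks found with IgG only, shared peaks in the IgG list, peaks found with input only and shared peaks in the input list, in the 4 treatments. Bars in the right panel carry 95% Wilson intervals, and medians have none. Both kinds of unshared peak are lower in fold and narrower than shared peaks of their list, while multi-block peaks are commonest among IgG-only peaks (33.0% to 38.3%).

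By gene, 410 of 650 identifiers with a peak in Aroclor1260 were found with IgG only (63.1%), 480 of 1204 in PCB126 (39.9%), 350 of 1100 in the combination (31.8%) and 392 of 659 in vehicle control (59.5%). Found with input only were 19 in Aroclor1260 (2.92%), 45 in PCB126 (3.74%), 55 in the combination (5.00%) and 32 in vehicle control (4.86%). Both references found 221 in Aroclor1260 (34%), 679 in PCB126 (56.4%), 695 in the combination (63.2%) and 235 in vehicle control (35.7%). The IgG-only peaks mostly lay in genes with no input peak at all. In genes that both lists held lay 12.9% of IgG-only peaks in Aroclor1260, 25.5% in PCB126, 30.8% in the combination and 14.0% in vehicle control. Input-only peaks mostly lay in genes that IgG also found, at 64.4%, 74.2%, 77.1% and 52.7%. Genes found with input only mostly had 1 peak (89.5%, 73.3%, 58.2% and 81.3%), whereas 25.1%, 23.1%, 28.9% and 25.8% of genes found with IgG only did.

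The class of a gene was followed across treatments. Of the 1512 identifiers, 1088 (72%) were found with IgG only in at least 1 treatment and 135 (8.93%) with input only. Of the 1088, 561 had no input peak in any treatment and 501 were found with both references in another treatment. Of the 135, 40 had no IgG peak in any treatment. A peak in 1 treatment alone was held by 507 identifiers, which could not repeat a class. With IgG only, 679 were found in 1 treatment, 289 in 2, 105 in 3 and 15 in all 4. Found with input only were 123 in 1 treatment, 10 in 2, 0 in 3 and 2 in all 4. Both references found 146 identifiers in all 4 treatments. Of the 392 identifiers found with IgG only in vehicle control, 190 were so in Aroclor1260, 109 in PCB126 and 69 in the combination. Both references found 48 of them in Aroclor1260, 214 in PCB126 and 247 in the combination.

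Among the 422 identifiers with a peak in all 4 treatments, found with IgG only were 211 in Aroclor1260, 66 in PCB126, 35 in the combination and 204 in vehicle control. The commonest mixed pattern, in 83 of them, was IgG only in Aroclor1260 and vehicle control and both references in PCB126 and the combination. The opposite pattern occurred in 0. The treatments with this pattern's missing input calls were those with the short input-referenced lists, and the part of list length was not tested. Where Aroclor1260 or vehicle control lacked an input call, another treatment often had one. Of their IgG-only peaks, 62.5% and 68.5% overlapped an input-referenced peak of another treatment. The share was lower in PCB126 (20.4%) and the combination (23.9%).

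The 15 identifiers found with IgG only in all 4 treatments were Srcap, Ep300, Arrdc3, Stbd1, Septin9, Bdh1, Mrps2, Opa3, Mlxipl, Vwa8, Serpind1, Eef2, Acaa2, Coq9 and Rpn1. Ep300 encodes a histone acetyltransferase. Its IgG lists held 8 peaks in Aroclor1260, 11 in PCB126, 14 in the combination and 11 in vehicle control, with best folds of 11.4, 22.8, 7.40 and 5.00. Srcap, a chromatin remodeller, had best folds of 6.40, 12.2, 8.20 and 6.40, but a second identifier placed at Srcap had 11 IgG and 13 input peaks in the combination. Counted once per symbol, 14 loci had this pattern. With lists of equal length, 3 identifiers had it.

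Mlxipl encodes ChREBP, the glucose-responsive transcription factor of lipogenesis. Its best folds with IgG were 4.20 in Aroclor1260, 6.60 in PCB126, 2.93 in the combination and 5.20 in vehicle control, over 4 to 6 peaks per list. Bdh1, a dehydrogenase of ketone body metabolism, had best folds of 3.8, 3.96, 5.60 and 3.37. Serpind1, the thrombin inhibitor heparin cofactor II, had 2.39, 6.60, 8.95 and 6.33. Eef2, a translation elongation factor, had 5 IgG peaks in each treatment and best folds of 2.2, 3.33, 5.00 and 2.13. Stbd1, a glycogen-binding protein, had 3.64, 15.0, 3.8 and 5.60, and Arrdc3, an arrestin-domain protein, 5.73, 7, 4.60 and 8.60. By the rule that chose them, none of the 15 identifiers had an input-referenced peak in any treatment. The highest of their best folds was 22.8, that of Ep300 in PCB126.

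Herc2 was the named gene found with input only in all 4 treatments. It encodes a giant HECT-domain ubiquitin ligase and lies at chr7:56050124-56231800. Its input lists held 1 peak each, with folds of 14.1 in Aroclor1260, 21.5 in PCB126, 38.4 in the combination and 13.9 in vehicle control. In PCB126 and the combination the peak spanned chr7:56230901-56231301, which lies in the last part of the gene, and the peaks of the other treatments overlapped it. The IgG lists held no Herc2 peak in any treatment. The other identifier with this pattern, ENSMUSG00000026715, stayed unnamed and had best folds of 1.69, 1.75, 3.00 and 1.92.

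At the level of single treatments, some strongly enriched genes were missing from the input list. In Aroclor1260 high IgG-only folds were those of Ythdf3 at 20.1, Arhgap29 at 20, Nsd1 at 15.2 and Plekhg3 at 14.8. Ythdf3, itself an m6A reader, had 42.9 with IgG and 27.7 with input in PCB126, 113 and 20.2 in the combination, and 36.4 and 10.2 in vehicle control. In PCB126 the highest IgG-only folds were Pik3ca at 54.0, Arhgap32 at 34.2, Ep300 at 22.8, Tns2 at 18.2 and H2-Q6 at 17.8.

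In the combination these were Arhgef3 at 45.6, Chd7 at 31.4, Terf2ip at 21.6, Jade1 at 20.3 and Jmjd1c at 16.8. Chd7, a chromodomain helicase, was found with IgG only in 3 treatments (8.40 in Aroclor1260, 31.4 in the combination, 13 in vehicle control), and in PCB126 with both (34.2 with IgG, 18.1 with input). In vehicle control the highest were Mapk14 at 21.4, Top1 at 18.6, Setd2 at 16.2, Acvr2a at 15.0 and Eif5b at 15.0. Setd2, a histone methyltransferase, was found with both references in PCB126 (15.6 with IgG, 14.6 with input) and the combination (21.5 and 12.5). Long genes could carry many IgG peaks and no input peak: Syne2, a nuclear envelope spectrin-repeat protein, had 23 IgG peaks in the combination and 17 in PCB126. Apc, the scaffold of the beta-catenin destruction complex, had 14 IgG peaks and no input peak in Aroclor1260 and 15 and none in vehicle control. In PCB126 it had 13 IgG and 11 input peaks, and in the combination 15 and 13.

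The highest input-only folds after Herc2 were Pik3ca at 13.1, Ptprb at 12.1, Cped1 at 9.70 and Mapk14 at 9.16 in Aroclor1260. In PCB126 they were Mapk14 at 20.1, Acvr2a at 15.4, Rora at 15.1 and Galnt2 at 6.50. In the combination they were Myc at 18.2, Wac at 14.0, St6gal1 at 8.84 and Mtmr4 at 7.25, and in vehicle control Il1r1 at 6.87, Notch2 at 6.62 and Myo9b at 6.07. Ptprb, a receptor phosphatase of endothelium, was found with both references in the other 3 treatments, at 20 with IgG and 17.7 with input in PCB126. It had 18.6 and 13.4 in the combination and 17.2 and 7.63 in vehicle control. Rora, a nuclear receptor, had 4 input peaks in PCB126 and no peak in any other list.

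Of the 1512 identifiers, 1088 were found with IgG only in at least 1 treatment and 135 with input only. Among these, 48 switched, being found with IgG only in one treatment and with input only in another, and 36 of the 48 had a symbol. In 47 of the 48 the span of an IgG peak of the first kind overlapped that of an input peak of the second by 1 bp or more. Spans include introns, so this overlap does not show that the same stretch of RNA was called in each. Mapk14 encodes the stress kinase p38 alpha. With input it was called at 9.16 in Aroclor1260 and 20.1 in PCB126, where IgG gave none. With both it was called in the combination, at 16.0 with IgG and 18.7 with input, and with IgG only in vehicle control, at 21.4. The vehicle control peak spanned chr17:28747215-28747611 and contained the PCB126 input peak at chr17:28747314-28747413.

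Pik3ca encodes the catalytic subunit p110 alpha of phosphoinositide 3-kinase. With IgG it had 4 peaks in PCB126, the strongest at 54.0 over chr3:32461504-32463044, and with input it had 1 peak in Aroclor1260 at 13.1, over chr3:32462694-32462894. No other list held it. Acvr2a, an activin receptor, was found with input only in PCB126 (15.4), with both in the combination (27.6 with IgG, 20 with input) and with IgG only in vehicle control (15.0).

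St6gal1, a sialyltransferase of secreted glycoproteins, was found with IgG only in Aroclor1260 (7.93) and PCB126 (8) and with input only in the combination (8.84) and vehicle control (5.52). Cnnm2, a magnesium transport protein, was found with IgG only in PCB126 (13.8) and the combination (16.0) and with input only in vehicle control (4.29). Nolc1, a nucleolar protein, was found with IgG only in PCB126 (12.2) and vehicle control (7.40) and with input only in the combination (3.93). Il4ra, the interleukin 4 receptor alpha chain, was found with input only in the combination (6.09) and with IgG only in vehicle control (6.60). Tent4b, a poly(A) polymerase, was found with input only in PCB126 (3.36) and with IgG only in the combination (8). For 1810055G02Rik, IgG only held in Aroclor1260 (5.36) and input only in the combination (4.03).

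**Figure D4:**
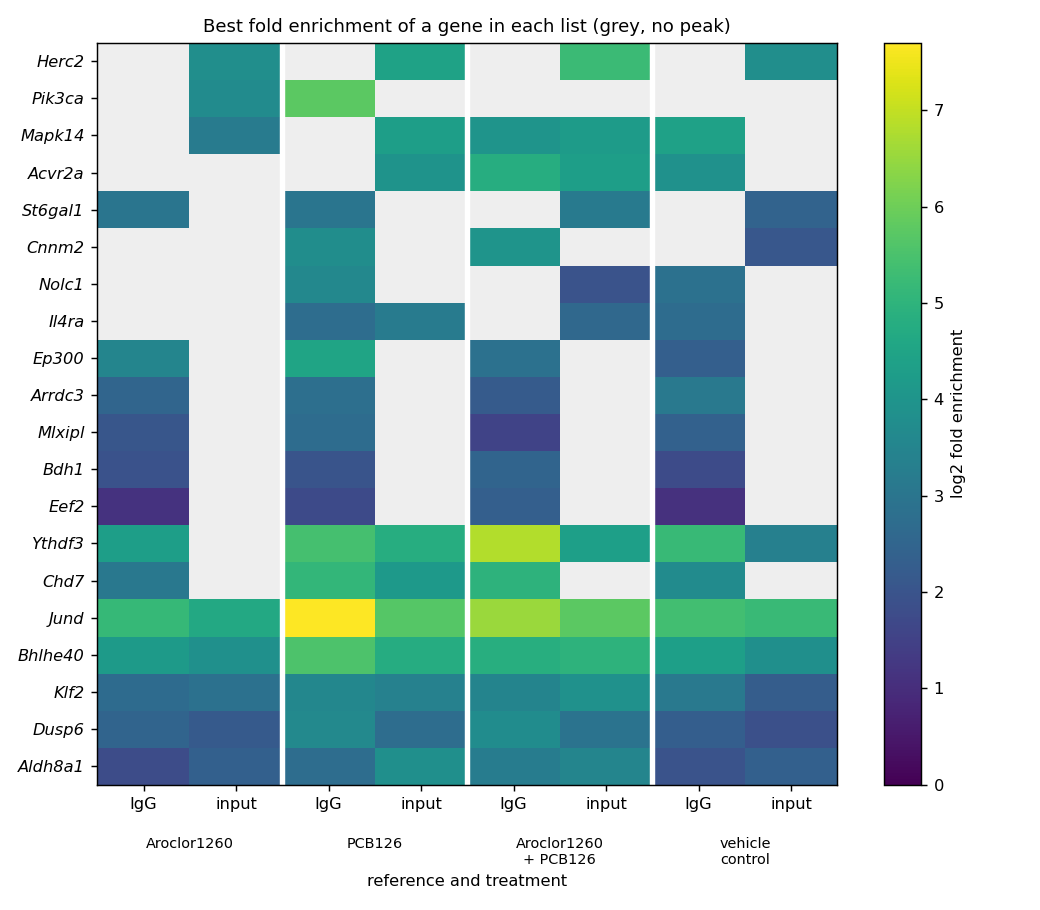
Best fold enrichment of 20 genes described in the text (rows) in the 8 lists (columns, IgG left of input within each treatment), on a log2 colour scale, with grey for no peak in the list. Herc2 is filled in the 4 input columns alone, Ep300 to Eef2 in the 4 IgG columns alone, Mapk14 to Il4ra change column between treatments, and Jund to Aldh8a1 are filled in all 8.

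A gene could appear gained or lost on exposure depending on the reference. Comparing each exposure with vehicle control by presence of a peak, the references gave opposite calls for 8 genes in Aroclor1260, 10 in PCB126 and 14 in the combination. St6gal1 was gained with IgG and lost with input in Aroclor1260 and in PCB126. Mapk14 was lost with IgG and gained with input in the same exposures, and Acvr2a likewise in PCB126. In Aroclor1260, 192 genes were gained with IgG and 71 with input, of which 15 were gained with both. In PCB126 these numbers were 605, 477 and 225, and in the combination 503, 504 and 211. Lost genes numbered 188 with IgG, 98 with input and 26 with both in Aroclor1260, 73, 20 and 2 in PCB126, and 85, 21 and 5 in the combination. The exposures share the vehicle control lists, which held 627 identifiers with IgG and 267 with input, out of 1512 in any list. The lists held 631 with IgG and 240 with input in Aroclor1260, 1159 and 724 in PCB126, and 1045 and 750 in the combination. The part of list length in the gained, lost and opposite calls was not tested.

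The gene groups differed in how far their peaks depended on the reference. Over all 3613 pairs of an identifier and a treatment with a peak, 45.2% were found with IgG only, 4.18% with input only and 50.7% with both. The lists below were compiled with earlier results of these data known, and the same gene in several treatments is not a set of independent observations.

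Immediate early and AP-1 genes were nearly all found with both references. Of their 37 pairs, 34 were found with both, 2 with IgG only (5.41%) and 1 with input only. The median of their best IgG folds was 12.1, against 5.00 over all identifiers. Jund, a Jun-family transcription factor, had 1 peak in every list, near chr8:70699096-70700322. Its folds with IgG were 36 in Aroclor1260, 208 in PCB126, 92.4 in the combination and 41.5 in vehicle control, and with input 24.9, 50.5, 53.9 and 37.3. Bhlhe40, a repressor of the circadian clock, had 18.2, 46.6, 28.2 and 20.5 with IgG and 14.7, 27.5, 31.6 and 14.3 with input. Klf9, Klf15, Klf2 and Dusp6 were also found with both throughout. Myc was the exception with input only, in the combination, where its 1 peak had a fold of 18.2, and with IgG only stood Egr1 in vehicle control (5.10) and Mcl1 in PCB126 (5.60).

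Transcripts of the mitochondrial genome were found with both references in 13 of 15 pairs. ND4, a subunit of respiratory complex I, had folds of 2.30, 4.04, 8.33 and 2.73 with IgG and 2.29, 3.48, 8.71 and 2.77 with input, so that both references gave close values in each treatment. Zinc finger genes (27.5% IgG only, 80 pairs), ubiquitin ligases (27.5%, 69 pairs), hepatocyte transcription factors (29.4%, 34 pairs) and endothelial genes (28.0%, 25 pairs) were also below the share over all genes. Their median best IgG folds were 7.10, 7.60, 8.30 and 10.8. Ppara, the nuclear receptor of fatty acid oxidation, stood in this group with 12.1, 26.6, 11.8 and 11.5 with IgG, and with input at 9.63 in Aroclor1260, 14.4 in PCB126 and 8.59 in vehicle control.

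The ribosomal protein and elongation factor transcripts were found with IgG only in all 11 of their pairs, from 4 genes. Beside Eef2 these were Rpl4, with best folds of 5.10 in PCB126, 2.00 in the combination and 1.57 in vehicle control, Rpl8, with 3.00 in Aroclor1260 and 1.37 in vehicle control, and Eef1b2, with 1.53 in Aroclor1260 and 1.89 in PCB126. Their median best IgG fold was 2.13. Several metabolic lists of the hepatocyte were above the share over all genes, and others, given below, were under it. Found with IgG only were 60% of glutathione, redox and metal defence pairs (20 pairs), 59.5% of fatty acid oxidation pairs (42), 57.7% of urea cycle and amino acid pairs (26) and 52.4% of lipogenesis pairs (21). Their median best IgG folds were 2.09, 3.05, 2.25 and 4.48. Mitochondrial transcripts also had a low median best IgG fold, 2.73, yet were mostly found with both. The part of the fold in these shares was not tested.

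Coagulation and complement pairs and plasma carrier and acute phase pairs were both at 50% (54 and 34 pairs), bile acid and transport pairs at 41.7% (12) and glucose and insulin response pairs at 32.4% (34). Apolipoprotein and lipoprotein pairs were at 26.7% (30) and unfolded protein response pairs at 26.3% (19). Macrophage, stellate, biliary and lymphocyte markers had 3 pairs with IgG only and 1 with both, histone H1f0 had 4 with both, and the long noncoding RNA list had 3 with both.

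Among fatty acid oxidation genes, Cpt1a, the carnitine palmitoyltransferase that admits fatty acids to mitochondria, was found with IgG only in 3 treatments, at 6.00 in Aroclor1260, 6.48 in PCB126 and 3.72 in vehicle control. In the combination it was found with both, at 4.55 with IgG and 3.9 with input. Cyp4a10, a fatty acid hydroxylase, was found with input only in vehicle control (1.57) and with IgG only in PCB126 (1.49).

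Cytochrome P450 genes were near the share over all genes for IgG only (46.4% of 28 pairs) but had 5 of 28 with input only. These were Cyp2f2 in PCB126 (1.5) and vehicle control (1.20), Cyp2a5 in the combination (1.77), Cyp2c37 in the combination (2.67) and Cyp4a10. Members of this family resemble one another in sequence, so how reads were divided among them is uncertain. In the urea cycle and amino acid list, Tat was found with input only in the combination (1.94) and vehicle control (1.25), and Dmgdh in the combination (1.73). Azgp1, a secreted zinc-binding glycoprotein, was found with input only in PCB126 (1.60) and the combination (3.65) and with IgG only in Aroclor1260 (1.80) and vehicle control (2.27). Coagulation factor F7 was found with input only in vehicle control (1.93) and with IgG only in Aroclor1260 (3.60). Further list members found with input only were Mt2 (2.18), Pparg (3.00), Igfbp1 (1.38) and Zbtb1 (4.50) in the combination, Zfp568 (4.78) and Rora in PCB126, Socs5 (1.60) in Aroclor1260 and Rnf125 (2.00) in vehicle control.

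**Figure D5:**
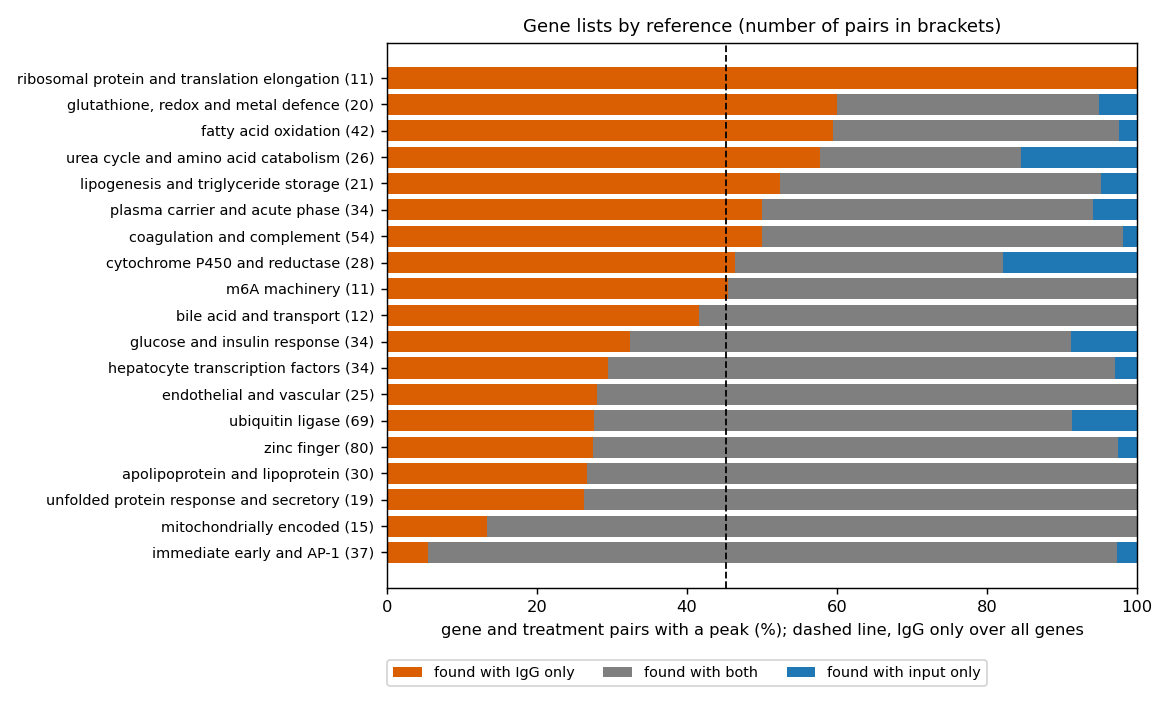
Pairs of a gene identifier and a treatment with a peak, in percent (horizontal axis), found with IgG only, both references or input only, for each gene list with at least 10 pairs (rows, with the number of pairs in brackets). The dashed line is the IgG-only share over all genes, 45.2%, and the lists lie between 5.41% for immediate early and AP-1 genes and 100% for ribosomal protein and elongation genes.

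Among m6A machinery genes, peaks were found in Zc3h13, Ythdc1 and Ythdf3. Zc3h13, a component of the methyltransferase complex, was found with IgG only in Aroclor1260 (5.30), the combination (9.53) and vehicle control (10.8), and with both in PCB126 (13.7 with IgG, 14.2 with input). Of aryl hydrocarbon receptor targets, Tiparp alone had a peak, with IgG only in the combination (13). Since most minus-strand identifiers stayed unnamed, further members of both lists could have been missed.

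Where both references found a gene in all 4 treatments, the best fold was usually higher with IgG. Of 129 such identifiers with a symbol, 124 had a median log2 ratio of IgG over input above 0, 75 were above 0 in all 4 treatments, and the median over identifiers was 0.65. They include 2 identifiers at Lrrc8a. The highest ratios were those of Lrrc8a, Zbtb18, Ing1, Rgs16 and Ppp1r3b. Lrrc8a, a subunit of the volume-regulated anion channel, had 36.2, 18.7, 47.0 and 29.4 with IgG and 10.6, 15.9, 13.8 and 6.79 with input under the identifier with the highest ratio, a median log2 ratio of 1.77. The other identifier there had 39.4, 19.3, 33 and 17.2 with IgG and 8.25, 16.6, 17.4 and 6.22 with input, a median log2 ratio of 1.20. The lowest were those of Aldh8a1, Amotl2, Glyat, Klf2 and ND4. Aldh8a1, an aldehyde dehydrogenase, was the 1 gene below 0 in all 4 treatments, with 3.49, 6.69, 9.45 and 3.95 with IgG and 5.17, 14.2, 11.4 and 5.11 with input. For Glyat, a glycine acyltransferase, the values were 2.96, 5.27, 5.04 and 3.73 with IgG and 3.33, 5.23, 6.72 and 2.70 with input, so its order changed between treatments. Here too the IgG folds rest on 1 pooled library per treatment and the input folds on 5.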

How the data were processed

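Liver RNA was precipitated with an m6A antibody (MeRIP), with input and pooled IgG libraries as references. The submitters' processing notes name BWA 0.7.17, Trimmomatic, FastQC 0.10.1 and bcl2fastq 2.20.0.422, and the mouse build mm10. The file titles name MeTPeak, without version or settings. Each of the 8 lists was called once per treatment, so values are pooled over animals. Per the file headers, each deposited peak has a p-value, a false discovery rate given as log10, and a fold enrichment, the authors' linear ratio of precipitate to reference. The largest false discovery rate was 0.0490.

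Peaks and genes were classed by overlap with Python 3.11.15, pandas 2.3.3, NumPy 2.4.6 and statsmodels 0.14.6, and the overlap code was tested on simulated data. Positions are given 1-based, from the 0-based starts of the lists. Symbols came from the RefSeq gene table (GRCm38.p6), by at least 80% of an identifier's exonic peak bases inside a gene, with strand from the RefSeq promoter table, and a minus-strand identifier needed a gene known to lie on that strand. Overlapping genes can share peaks. The members, gene lists and rules were chosen with earlier results of these data known. Genes named are those found with 1 reference in all or most treatments, the 5 highest folds per class and treatment, the 5 highest and lowest fold ratios, 10 switching genes, genes with most IgG peaks, and list members, with those found with input only, and a few genes that these rules name are not reported here. Values quoted for an identifier are its best fold in a list. The alternatives were another overlap rule, strand ignored, stricter thresholds, equal list length, plus-strand peaks and loci in place of identifiers. No sample was left out.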

Additional observations from a re-analysis of the deposited data

Results flagged for a closer look

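In 48 of 1512 identifiers a peak was found with IgG only in one treatment and with input only in another. For scale, 1088 identifiers were found with IgG only in at least 1 treatment and 135 with input only. The difference between treatments was not tested, since each list holds 1 value per treatment. Among them were Pik3ca, with a highest fold of 54.0 (IgG, PCB126), and Acvr2a, with a highest fold of 27.6 (IgG, the combination, where input also found it).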

How the results depend on the processing

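Of 82 recomputed values, 49 stayed within the counting interval of the reported value (1.5 times, for counts of genes) and 33 moved, and the cause was not tested beyond what each setting changes. Exonic-block overlap, ignoring strand, a false discovery rate of at most 0.01 and plus-strand peaks moved none, and counting loci left 14 and 86 genes. With 50% reciprocal overlap the IgG-only share of IgG peaks was 85.8% in Aroclor1260, 66.9% in PCB126, 62.6% in the combination and 83.5% in vehicle control, and the input-only share of input peaks was 41.7%, 37.3%, 39.8% and 45.0%. Median width was then 151 bp for IgG-only peaks in PCB126, and 150, 150 and 151 bp for input-only peaks in PCB126, the combination and vehicle control. At fold 2 or more in both lists the IgG-only share was 82.4% in Aroclor1260, 58.2% in PCB126 and 52.5% in the combination, and the input-only share 7.39%, 7.90%, 13.1% and, in vehicle control, 9.69%. With equal list length the IgG-only share was 46.3% in PCB126 and 41.7% in the combination, and the input-only share 76.9% in Aroclor1260, 44.7% in PCB126, 42.4% in the combination and 71.6% in vehicle control. Median width was then 197 bp (Aroclor1260) and 151 bp (PCB126) for IgG-only peaks, and 200, 151, 150 and 200.5 bp for input-only peaks in Aroclor1260, PCB126, the combination and vehicle control. Genes found with IgG only in all 4 treatments then numbered 3 in place of 15, and genes found with input only somewhere and with IgG only nowhere 414 in place of 87. The multi-block share of IgG-only peaks stayed above that of shared peaks in all 4 treatments under equal length and reciprocal overlap, with the smallest gap in the combination (31.3% and 28.9%, reciprocal overlap). No paired analysis was possible because each list gives 1 value per treatment and none per animal, and for the same reason no replicate could be left out. Unknown read depth limits any statement that a gene without a peak lacks m6A.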
